A study of Mus musculus with 12 samples.

Results

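Pax6, En2 and Mab21l1 are regulators of neural and eye development whose RNA was near 0 in control kidney cells and clearly present in the mutant cells of this series. They are 3 of the 26699 loci of the deposited table. They are given by name and position, and as a set called ectopic they are taken to have been chosen by their measured levels, higher in mutant than in control cells. That contrast is therefore described here without a test. High against low mutant cells, the use of Pax6 transcripts and the neighbouring loci are taken not to have been part of that choice. Tests are given only for these.

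RNA was sequenced from 12 samples of mouse kidney cells collected at P0 (postnatal day 0). Six2-expressing cells, a population that includes nephron progenitors, had been sorted by flow cytometry and carried the R26R-tdTomato reporter in every group, controls included. The titles give 2 mutant high, 4 mutant low, 2 control high and 4 control low samples, where high and low refer to an expression that the titles do not name. The series title names Eed, but no sample label states which gene or allele was altered in the mutants, how many animals were used or whether samples came from separate animals, so the spread between samples may be technical. In bulk samples, fewer cells that carry an RNA and less of it per cell cannot be told apart.

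Eed is a core subunit of Polycomb repressive complex PRC2, which places methyl groups on lysine 27 of histone H3 and keeps developmental regulators silent outside their own lineage. Pax6 is a transcription factor with a paired domain and a homeodomain, needed for the eye, the forebrain and pancreatic islets. En2 is an engrailed homeodomain factor of the midbrain and hindbrain, and Mab21l1 belongs to a family named for a cell-fate gene of Caenorhabditis elegans and is needed for lens and eye development in the mouse.

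The loci lie on the plus strand of the mm9 build. Pax6 (uc008llc.1 as its most abundant transcript) runs from 105509052 to 105537226 on chromosome 2 and sums 9 transcripts, En2 (uc008wtv.1) from 28492235 to 28498706 on chromosome 5, and Mab21l1 (uc008pgv.2) from 55586431 to 55589209 on chromosome 3, with 1 transcript each. In the RefSeq annotation of another build, GRCm38.p6, Pax6 overlaps Pax6os1 and Elp4, Mab21l1 lies within the span of Nbea, and En2 overlaps no gene and stands between Insig1 and Cnpy1. By length, the span in the table equals the RefSeq span of 2778 bases for Mab21l1, is 6471 against 6495 bases for En2, and is 28174 against 29515 bases for Pax6, so an equal length supports the identity of Mab21l1 alone.

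RefSeq gives promoter windows of 300 bases for Pax6, at 2 annotated starts that are 13.567 kb apart. Pax6 is the only member with a window there, so none is shown for En2 or Mab21l1. Pax6 also has several transcript starts on the mm9 build, and its fragments are divided between those below. Both windows are on the plus strand of GRCm38.p6. Capitals mark each CG, the dinucleotide that is dense in CpG islands, where Polycomb complexes bind in mammals. Each window runs from 250 bases before to 50 bases after the annotated start.
Pax6 first start, chr2:105668646-105668945: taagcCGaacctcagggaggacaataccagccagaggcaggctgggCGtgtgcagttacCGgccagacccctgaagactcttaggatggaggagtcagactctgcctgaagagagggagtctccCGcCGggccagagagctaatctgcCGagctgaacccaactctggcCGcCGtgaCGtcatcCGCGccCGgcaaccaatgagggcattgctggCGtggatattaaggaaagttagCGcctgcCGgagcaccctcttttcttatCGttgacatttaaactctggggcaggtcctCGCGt
Pax6 second start, chr2:105682213-105682512: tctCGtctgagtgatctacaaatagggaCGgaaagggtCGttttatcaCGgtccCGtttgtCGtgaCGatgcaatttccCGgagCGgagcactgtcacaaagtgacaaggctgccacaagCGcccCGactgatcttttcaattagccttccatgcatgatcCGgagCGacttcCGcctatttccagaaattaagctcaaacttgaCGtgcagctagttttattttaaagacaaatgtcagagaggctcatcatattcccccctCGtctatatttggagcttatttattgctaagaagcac
The first window holds 18 CG and the second 16, against a median of 7 over all 32851 windows of this length. As many CG or more were found in 29.7% of all windows for the first and in 33.0% for the second. TATAAA (searched with its reverse complement TTTATA, 13.6% of windows) was in neither, and CCAAT or its reverse complement ATTGG (37.4% of windows) was in the first only, once. These matches describe letters and are no evidence of binding.

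Pax6 was present in all 6 mutant libraries and all but missing from controls. It had 78 and 62 fragments in the mutant high libraries and 86, 57, 170 and 227 in mutant low replicates 1 to 4, against 0 and 0 in control high and 0, 1, 4 and 3 in control low libraries. Scaled to library size as CPM (the usual counts-per-million scale, here with TMM factors), the means were 7.58 ± 0.0668 CPM in mutant high (SD, n = 2) and 13.98 ± 5.43 CPM in mutant low cells (SD, n = 4), against 0 CPM in the control high and 0.204 ± 0.183 CPM in the control low libraries (SD, n = 4). The lowest mutant library, a high one at 7.54 CPM, lay above the highest control library, a low one at 0.432 CPM, so mutant and control libraries did not overlap. Over the fragments of each group, Pax6 was 69.0-fold higher in mutant low than in control low cells, with a counting interval of 34.8 to 161. In high cells, where no control fragment was found, it was at least 21.1-fold higher against a floor of 3 fragments over the control group. Such intervals and floors cover counting error only.

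En2 was likewise near 0 in controls and present in every mutant library. The mutant high libraries had 311 and 356 fragments and the mutant low libraries 295, 197, 352 and 528, against 2 and 0 in control high and 1, 2, 3 and 3 in control low libraries. The means were 36.9 ± 9.73 CPM in mutant high (SD, n = 2) and 36.5 ± 5.64 CPM in mutant low cells (SD, n = 4), compared with 0.208 ± 0.294 CPM in the control high libraries (SD, n = 2) and 0.240 ± 0.0881 CPM in the control low ones (SD, n = 4). Every mutant library, at 30.0 CPM or more, lay above every control library, at 0.416 CPM or less. The fragment ratio of mutant to control was 150 in high cells, with a counting interval of 41.5 to 1245 that rests on 2 control fragments, and 156 in low cells, with an interval of 81.8 to 341. With 0.5 fragments added per library, the log2 difference in high cells was 6.80, and it was 8.03 and 6.15 without control high replicates 1 and 2.

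Mab21l1 was also near 0 in controls and present in every mutant library. Its fragments numbered 255 and 261 in mutant high and 372, 341, 413 and 464 in mutant low libraries, against 0 and 2 in control high and 3, 2, 2 and 3 in control low libraries. The mean level was 28.4 ± 5.29 CPM in mutant high (SD, n = 2), 44.6 ± 5.96 CPM in mutant low (SD, n = 4), 0.284 ± 0.401 CPM in control high (SD, n = 2) and 0.271 ± 0.0577 CPM in control low cells (SD, n = 4). The highest mutant high library, at 32.1 CPM, was below the lowest mutant low library, at 37.7 CPM. The fragment ratio of mutant to control was 116 in high cells (counting interval 32.1 to 964, on 2 control fragments) and 163 in low cells (88.1 to 340). In high cells the size rested on single control libraries. With 0.5 fragments added per library, the log2 difference of mutant from control was 6.13, against 5.33 and 8.09 without control high replicates 1 and 2.

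For all 3 genes, mutant and control libraries did not overlap in either population, the pattern the genes are taken to have been chosen for. The share of all loci without such overlap was not counted, and the calls that follow are another measure. Of all 13749 loci tested, 16.3% were called higher and 11.2% lower in mutant high than in control high cells, and 4.82% higher and 3.21% lower in mutant low than in control low cells, by the quasi-likelihood test of edgeR with an adjusted p under 0.05. The shares in high cells and the lower share in low cells moved with single libraries. The loci higher in low cells numbered 663, and 500 to 722 leaving out 1 library. In high cells 2239 loci were higher, but 1480 and 1162 without control high replicates 1 and 2, and 1541 were lower, but 601 without mutant high replicate 2 and 970 and 834 without control high replicates 1 and 2. In low cells 441 were lower, but 263 without mutant low replicate 4. All 3 members passed the filter on low counts, through their mutant libraries. The control high libraries were among the shallower ones, with 6249263 and 4549011 fragments against 5948488 to 12365078 in the other 10, and chromosome M took 4.51% and 10.3% of them, compared with 0.494% to 1.96% of the fragments elsewhere. At that depth a total of 3 fragments over the control high group corresponds to 0.360 CPM, the floor set here. Pax6 at 0 CPM, En2 at 0.208 CPM and Mab21l1 at 0.284 CPM lay under it, so their levels there are poorly determined. In control low cells the same floor is 0.0803 CPM, and all 3 genes, with 8 to 10 fragments over the group, lay above it.

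**Figure D1:**
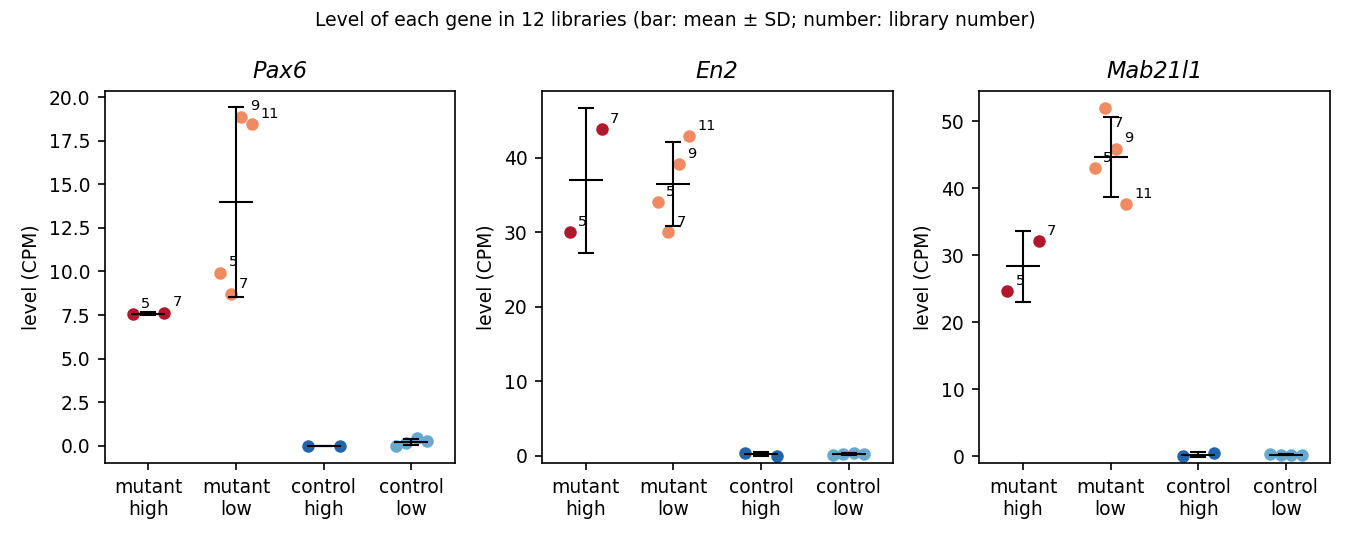
Level in CPM (linear axis) of Pax6, En2 and Mab21l1 in each library of the 4 groups, with the mean and SD of the group; numbers beside mutant points are the library numbers of the sample descriptions. Mutant libraries lie at 7.54 CPM or more for Pax6, 30.0 or more for En2 and 24.6 or more for Mab21l1, and control libraries at 0.567 CPM or less, while the mutant low libraries of Pax6 split into 5 and 7 against 9 and 11.

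The next question was whether mutant high and mutant low cells carried the genes to the same level. The choice of genes is taken to rest on mutant against control levels. The same mutant values enter this contrast, so it is not wholly independent of that choice. None of the 3 was called, where 32.2% of all loci tested were called in this comparison, 19.0% higher and 13.2% lower in high cells. The 1814 loci lower in high cells numbered 1022 and 865 without mutant high replicates 1 and 2. The log2 fold change of high over low was 0.01 ± 0.30 for En2 (SE; adjusted p = 0.977 in edgeR), -0.65 ± 0.31 for Mab21l1 (SE; adjusted p = 0.122) and -0.89 ± 0.47 for Pax6 (SE; adjusted p = 0.166). In order of level, Mab21l1 and Pax6 stood highest in mutant low cells, next in mutant high cells and lowest in the control groups, while En2 was about level in both mutant groups. The libraries of the mutant groups did not overlap for Mab21l1 and Pax6 and overlapped for En2. How many of all loci separate in this way was not counted, so the separation is not read as particular to these genes. The order of the control groups is not readable for any of the 3, since it rests on 0 to 10 fragments. A p that misses the threshold does not show equal levels.

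The Pax6 difference moved with the library number in the sample descriptions. Mutant low libraries numbered 9 and 11 had 18.9 and 18.4 CPM, and those numbered 5 and 7 had 9.93 and 8.69 CPM. Both mutant high libraries are numbered 5 and 7 too, at 7.54 and 7.63 CPM, so they were 0.759 and 0.878 times the low library of the same number. Without the low libraries 9 and 11 the log2 fold change of Pax6 was -0.29 (SE 0.49, edgeR adjusted p = 0.707), an alternative chosen after seeing the data. Mutant low libraries 9 and 11 were also deeper, with 9841393 and 12317879 fragments against 7451704 and 5948488 for 5 and 7. Chromosome M took 0.539% and 0.494% of them, against 1.29% and 1.68%. What the numbers stand for is not given in the labels. The part of the numbers, of depth and of the chromosome M share in the result was not tested.

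Mab21l1 kept its direction within each number. The high library was 0.574 times the low one for number 5 and 0.618 times for number 7, and without the low libraries 9 and 11 the log2 fold change was -0.74 (SE 0.36, edgeR adjusted p = 0.155). En2 did not, with ratios of 0.882 for number 5 and 1.46 for number 7. None of the 3 genes was called under any of the 22 other settings tried, and the lowest edgeR adjusted p was 0.0503, for Mab21l1 without both control high libraries.

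The 3 genes were set beside the other loci with a mean under 0.5 CPM in both control groups. There were 223 such loci among those tested, the members included. Of these, 81 (36.3%) were called higher and 15 (6.73%) lower in mutant high than in mutant low cells, and their median log2 fold change of high over low was 0.84, compared with -0.03 for all loci tested. The members lay in the lower part of that distribution, with 39 of the 223 below Pax6, 49 below Mab21l1 and 81 below En2. The loci had to reach a level in at least 1 mutant group to pass the filter, so these counts describe the set only.

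**Figure D2:**
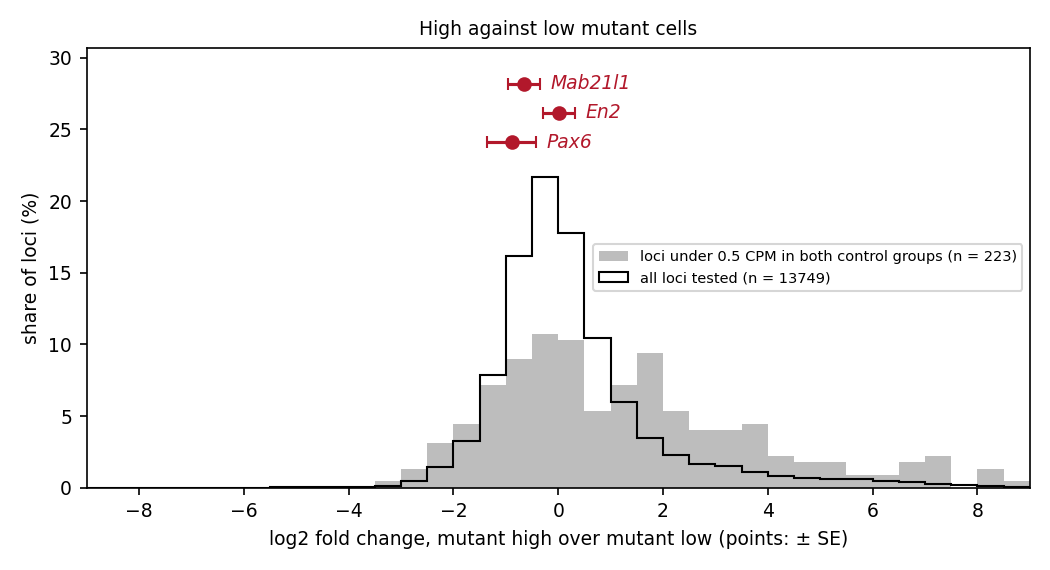
Log2 fold change of mutant high over mutant low cells on the horizontal axis and the share of loci in percent on the vertical axis, for all 13749 loci tested (outline) and for the 223 loci under 0.5 CPM in both control groups (filled); red points give Pax6, En2 and Mab21l1 with their SE, at arbitrary height. The filled distribution has its median at 0.84, while the 3 genes lie between -0.89 and 0.01.

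Pax6 is the only member with several transcripts, and the 9 of them start at 5 positions. Counting from the first start, at 105509052, the others begin 5.068, 6.213, 7.549 and 16.882 kb further on. None lies at the distance of 13.567 kb that separates the 2 RefSeq starts printed above. Fragments of shared exons were divided between the transcripts by the authors' program, so the values per transcript are estimates.

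Most Pax6 fragments were assigned to the transcript with the last start. uc008llc.1 (105525934 to 105537226) took 592 of the mutant fragments, 87.0% of the Pax6 total, with 65.9 and 62 in the mutant high libraries and 67.9, 57, 150 and 189 in mutant low replicates 1 to 4. It also took all but traces of the 8 control low fragments. By span it is the shortest of the transcripts that reach the end of the locus.

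The transcripts from the first start took most of the remaining fragments. uc008lkv.1 (105509052 to 105537226) had 20.0 and 28.7 fragments in mutant low replicates 3 and 4 and under 0.5 in every other library. uc012cat.1, with the same ends, had 12.1 in mutant high replicate 1, 14.1 in mutant low replicate 1 and 9.51 in mutant low replicate 4. uc008lku.1, again with these ends, had 0.0648 over all mutant libraries. Summed, the first start held 15.5% and 0% of Pax6 fragments in mutant high replicates 1 and 2, and 16.4%, 0%, 11.8% and 16.8% in mutant low replicates 1 to 4. The 2 libraries at 0% are those numbered 7, and they also had the fewest Pax6 fragments of all mutant libraries.

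Of the transcripts that start in between, uc008lkx.1 (105514120 to 105516090) had 4.00 fragments, all in mutant low replicate 1. The other 4 had none in any library: uc008lky.1 (105514120 to 105537226), uc008lkz.1 (105515265 to 105516090), and uc008lla.1 and uc008llb.1 (both 105516601 to 105537226). The share of uc008llc.1 was 92.2% ± 11.0 in mutant high (SD, n = 2) and 87.6% ± 9.09 in mutant low cells (SD, n = 4), a difference of 4.65 percentage points (two-sided exact permutation test, p = 0.667). With 2 against 4 samples the smallest p this test allows is 0.133. Without mutant high replicate 2 the difference was -3.10 percentage points, so its direction rested on that library.

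**Figure D3:**
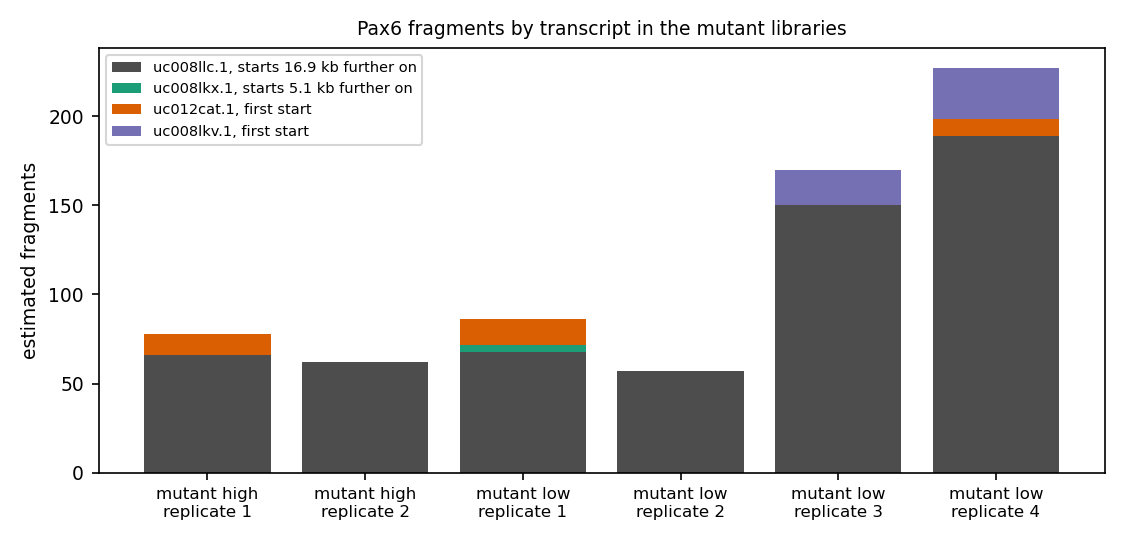
Estimated Pax6 fragments (vertical axis, linear from 0) in each of the 6 mutant libraries, stacked by transcript; the 5 transcripts with under 0.5 fragments in all are left out. The dark segment, uc008llc.1 with its start 16.9 kb after the first, makes up 79.0% to 100% of each bar.

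Reads of the opposite strand could enter these values, because the kit named in the labels does not mark strand by default. Mab21l1 lies inside a minus-strand locus from 55429119 to 55987623. That locus was expressed in every group, at 10.5 ± 0.807 CPM in mutant high (SD, n = 2), 14.1 ± 3.10 CPM in mutant low (SD, n = 4), 12.7 ± 3.27 CPM in control high (SD, n = 2) and 12.8 ± 3.96 CPM in control low cells (SD, n = 4). It was not called in mutant against control cells, at a log2 fold change of -0.26 ± 0.38 in high (SE; adjusted p = 0.644 in edgeR) and of 0.14 ± 0.26 in low cells (SE; adjusted p = 0.816). Control libraries held 50 to 172 fragments of that locus, and Mab21l1 had at most 3 in the same libraries. Where in the locus these fragments lie is not known, and whether opposite-strand reads entered Mab21l1 was not tested. The minus-strand loci that overlap Pax6, from 105376236 to 105510487 and from 105511264 to 105514605, had at most 2 fragments in any library, too few to be tested. No locus of the table overlaps En2.

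The loci around the 3 genes were not chosen by any value, so their mutant effects could be tested. Within 500 kb of the 3 genes lay 20 other loci, 12 of which were tested. In high cells 5 of the 12 were higher and 1 was lower in mutant than in control cells (50.0%, against 27.5% of all loci tested). In low cells none was higher and 1 was lower (8.33%, against 8.03% of all loci tested). Without control high replicate 2, 3 of the 6 calls in high cells were lost. The median log2 fold change of the 12 was 0.59 in high cells, with 0.08 for all loci tested, and 0.14 in low cells, with -0.06 for all. The smallest window tried, 250 kb, held 1 of the called loci in high cells and none in low cells.

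The tested loci nearest to Pax6 and En2 were not called, while the nearest one outside Mab21l1, 243 kb before it, was called in high cells and is described below. A minus-strand locus begins 3.04 kb beyond the end of Pax6 (105540265 to 105744657). It stood at 12.4 ± 1.18 CPM in mutant high (SD, n = 2), 18.6 ± 4.76 CPM in mutant low (SD, n = 4), 10.5 ± 0.411 CPM in control high (SD, n = 2) and 16.9 ± 1.63 CPM in control low cells (SD, n = 4). Its log2 fold change was 0.24 in high (edgeR adjusted p = 0.610) and 0.14 in low cells (edgeR adjusted p = 0.774). For En2 the nearest were a locus 87.0 kb before it (28397951 to 28405202), at -0.40 in high and 0.97 in low cells with edgeR adjusted p of 0.803 and 0.450, and one 145 kb beyond it (28643728 to 28745782), at 0.29 and 0.21 with 0.609 and 0.702. A locus 30.3 kb beyond En2 (28528985 to 28572328) had 1 fragment over all 12 libraries.

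One neighbour fell in both populations. It lies 289 kb before Pax6 on the plus strand, from 105064498 to 105220017. Its level was 10.6 ± 0.814 CPM in mutant high and 161 ± 91.5 CPM in control high libraries (SD, n = 2 each), or -3.92 ± 0.53 on the log2 scale (SE; adjusted p = 0.000228 in edgeR), and -3.14 without control high replicate 1 (edgeR adjusted p = 0.00287). In low cells it was 2.70 ± 0.980 CPM in mutant and 9.14 ± 3.86 CPM in control samples (SD, n = 4 each), or -1.78 ± 0.37 on the log2 scale (SE; adjusted p = 0.00737).

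The 5 neighbours that rose did so in high cells and were not called in low cells. All 5 were expressed in control low cells, with means of 50.4, 7.31, 67.7, 521 and 224 CPM in the order given below. Each of these means lay above that of the same locus in mutant high cells, at 40.8, 4.02, 16.8, 286 and 186 CPM. One change was 2.78 on the log2 scale (SE 0.35, edgeR adjusted p = 0.000150), at a locus 243 kb before Mab21l1, from 55046447 to 55342990, with 40.8 ± 9.10 CPM in mutant high and 5.92 ± 0.751 CPM in control high libraries (SD, n = 2 each). A long locus that ends 438 kb before En2, from 27143896 to 28054040, rose by 2.67 (SE 0.56, edgeR adjusted p = 0.00322). Its size rested on the control high libraries, at 1.84 without replicate 1 and 4.16 without replicate 2 (edgeR adjusted p of 0.0405 and 0.00406). The other 3 began at 104966685 and 105226104 on chromosome 2 and at 28067204 on chromosome 5, with log2 fold changes of 1.96, 1.19 and 0.88. All 3 lost their call without control high replicate 2, with edgeR adjusted p of 0.0858, 0.106 and 0.225, and each also without at least 1 mutant high library, with edgeR adjusted p of 0.0689 for the first without replicate 1, of 0.0627 and 0.111 for the second without replicates 1 and 2, and of 0.273 for the third without replicate 2. The second also lost it without control high replicate 1 (edgeR adjusted p = 0.127). The file does not pair these identifiers with gene names, so the neighbours are given by position.

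**Figure D4:**
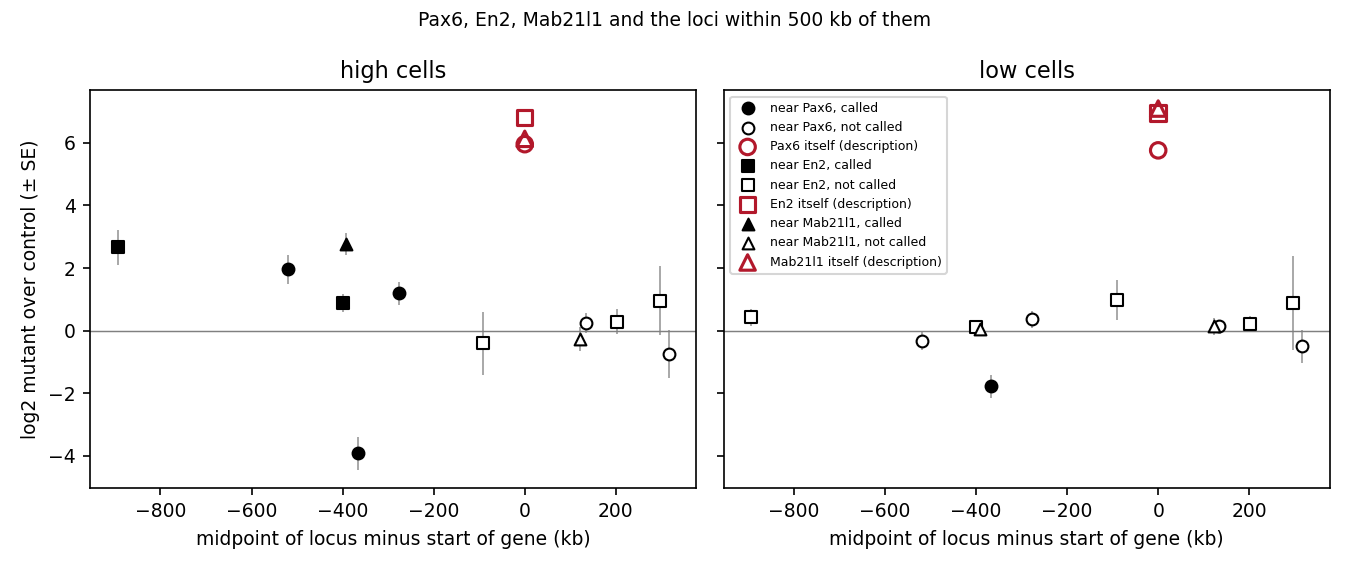
Log2 fold change of mutant over control cells (± SE) for the tested loci within 500 kb of Pax6, En2 or Mab21l1, against the distance in kb of their midpoint from the start of that gene, in high cells on the left and low cells on the right; filled black symbols were called, open ones were not, and red symbols give the genes themselves as a description, with 0.5 fragments added to each library. The 3 genes lie at 5.76 or more, while their neighbours range from -3.92 to 2.78 in high cells and from -1.78 to 0.97 in low cells.

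Loci with a profile like that of the members were ranked by Pearson's r of log2(CPM + 0.5) over the 12 libraries, as a description, since all of these profiles share the step from control to mutant libraries. Pax6 was most like a locus on chromosome 2 from 74506366 to 74509655 (r = 0.995) and one on chromosome 9 from 55388955 to 55393985 (r = 0.992). For En2 and for Mab21l1 the 2 most alike were the same loci, on chromosome 15 from 102751561 to 102759245 and on chromosome 12 from 74142813 to 74147699, with r between 0.986 and 0.989. Of 13748 loci, Mab21l1 ranked 7 and Pax6 10 for En2, En2 ranked 5 and Pax6 10 for Mab21l1, and En2 ranked 9 and Mab21l1 15 for Pax6. By Spearman's rho, which uses only the order of libraries, En2 ranked 371 and Mab21l1 547 for Pax6, and Mab21l1 ranked 1002 for En2.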

How the data were processed

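Per the file title, the authors deposited raw fragments of CuffDiff2, which are estimated counts per transcript without normalization. Bowtie2, HTSeq, DESeq2 and the build mm9 appear in the submitters' processing notes, without roles. Any use of strand is not given in the sources used here. Starts are printed as deposited and count from 0, since 11381 of 46287 spans equalled a RefSeq gene length on their chromosome as end minus start, against 4693 after adding 1.

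Transcripts overlapping on one strand were summed to loci and rounded, and in each library 99.6% to 99.9% of these values were whole numbers (tolerance 0.01). The 303 transcripts without a position held no fragments. All 12 libraries entered 1 fit of 4 groups in edgeR 4.0.16 (R 4.3.3) with TMM, filterByExpr, robust quasi-likelihood F tests and Benjamini-Hochberg adjustment over 13749 loci, two-sided at 0.05. The fit was also run on simulated counts in which only the mutant high group changed. That setting is unlike genes near 0 in controls, so it says nothing about them. Other settings were DESeq2 1.42.0, RLE, other filters, single libraries left out, replicate blocks, transcripts as features and fewer groups. The exact permutation test used SciPy 1.17.1.

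The members, lists and settings were chosen with earlier results of these data known. Named loci are the 3 members, the 9 Pax6 transcripts, loci overlapping a member or within 500 kb, and the 2 most alike per member. Lists of cell type markers and of other neural regulators were not analysed here, because the files and reference tables do not pair the identifiers with names. The labelled cell type, the targeted gene and markers of other cells were for the same reason not checked. Levels are not compared between genes, since transcript lengths were not used.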

Additional observations from a re-analysis of the deposited data

Results flagged for a closer look

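Among 36 groups of 4 libraries examined, 2 held a library far from the others, where chance gives about 1 in 20. The minus-strand locus that starts at 105376236 and overlaps the start of Pax6 was at 0.136 CPM in control low replicate 2 and at 0 in the other control low libraries. The locus that starts at 28783379, beyond En2, was at 0.164 CPM in control low replicate 4 and at 0 in the others. Each of these values stands for 1 or 2 fragments. With the other libraries at 0, any fragment at all sets a library apart in this way. The rate of 1 in 20 therefore does not hold for these 2 groups. No library of Pax6, En2 or Mab21l1 stood out in this way in mutant low or control low cells, and groups of 2 were not examined.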

How the results depend on the processing

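No call of a member in high against low mutant cells was gained under any of 22 settings. The log2 fold change ranged from -1.06 to -0.24 for Pax6 and from -0.87 to -0.50 for Mab21l1, and for En2, close to 0, it took either sign: -0.29 to 0.24 leaving out 1 library, -0.0080 without a filter and -0.0042 without both control high libraries. With a replicate block on the title numbers it was -0.24 for Pax6, 0.20 for En2 and -0.76 for Mab21l1, and with one on the description numbers -0.29, 0.18 and -0.75 (edgeR adjusted p of 0.0862 or more). Same-numbered mutant libraries deviated from their group means with correlations of 0.222 and 0.130, and control libraries with the same description number with -0.0360 and -0.0738. With 2 high libraries a group, these are mirror images and do not settle whether a number marks anything shared, so the fits without a block are given. Mutant against control cannot be blocked on the description numbers, which differ between them.

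Leaving out 1 library, the loci called numbered 2883 to 4460 in mutant high against mutant low (2883 without mutant high replicate 1; 4427 in all libraries) and 1996 to 4010 in mutant high against control high cells (3780 in all; 2164 without mutant high replicate 2, 2450 and 1996 without control high replicates 1 and 2). The called neighbours in high cells numbered 3 to 6, with 3 without control high replicate 2. With each transcript a feature, 2713, 2012 and, in mutant low against control low cells, 427 (1104 as loci) were called, and no neighbour in low cells. A 250 kb window held 1 called neighbour in high and 0 in low cells, and one of 1000 kb held 10 in high cells. Loci lower in mutant low cells numbered 441, against 263 without mutant low replicate 4 and 282 in a fit of only those groups. With 2 fragments added per library in place of 0.5, the log2 ratio of mutant to control fell in high cells to 3.99 for Pax6 (5.96 before), 5.73 for En2 (6.80) and 5.21 for Mab21l1 (6.13), and in low cells to 5.06 (5.76), 6.32 (6.95) and 6.51 (7.10), because the control libraries hold few fragments. The share of uc008llc.1 in high minus low cells ran from -3.10 to 12.4 percentage points leaving out 1 library. Of the 6 places among the most alike loci, 0 were kept with Spearman's rho and 1 with 0.1 CPM added. The cause of these shifts was otherwise not tested.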
